A study of Homo sapiens with 8 samples.

Results

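The genes of the NF-kB pathway, with the chemokines and cytokines it is known to control, were followed in HCT116, an established line of human colorectal cancer cells. A list of 42 genes was matched to array probe sets by the annotated gene symbol, and 40 of them had a probe set, of 18417 genes tested in all. BIRC3 and CSF2 were also looked for among probe sets annotated with several genes, and no probe set listed either symbol, so both are not analysed here. The tested cells expressed a short hairpin RNA against CDK8 (shCDK8), and the reference cells a control hairpin (shControl). CDK8 is the kinase of the dissociable module of Mediator, the complex that links transcription factors to RNA polymerase II. All cells had been kept without serum for 40 h, and were then collected, either given 10% fetal bovine serum for 30 min (serum) or given none (starved). The groups were shCDK8 serum, shCDK8 starved, shControl serum and shControl starved cells, with 2 arrays each and 8 in all. The labels name 1 hairpin per arm and no separate clones, so a difference between shCDK8 and shControl cells holds the knockdown together with anything else in which these 2 cell populations differ. The labels call the arrays duplicates and do not name separate cultures, so the p-values reflect the spread of these samples alone, part or all of which may be technical.

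NF-kB is a dimer of Rel proteins that is held in the cytoplasm by IkB inhibitors. Signals from cytokine and pattern-recognition receptors activate the IKK complex, which phosphorylates the IkB proteins and marks them for destruction, and the freed dimers enter the nucleus and bind kappaB sites in promoters. Among their targets are the genes of their own inhibitors, which makes the pathway self-limiting, and in epithelial cells the neutrophil-attracting chemokines.

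Values are log2 probe set levels, and errors of levels are SDs over 2 arrays. Changes are log2 differences with the standard error of limma's model. P-values are limma's, adjusted by Benjamini-Hochberg over all 18417 genes of a comparison, and a gene is said to have risen or fallen, or to be higher or lower, only where the adjusted p was below 0.05. Levels of different genes come from different probes and are not compared as amounts of RNA. The probe set that carries CDK8, annotated with both CDK8 and ADRA1B, read 6.99 to 7.09 on the 4 shCDK8 arrays and 9.19 to 9.23 on the 4 shControl arrays. The 2 arrays of a group had a correlation across genes of 0.997 to 0.998, and array medians lay between 6.44 and 6.51. Against the labelled cell type, 7 of 10 colon epithelial markers averaged above the median of all genes (7.09), among them EPCAM at 11.76 and KRT8 at 12.49. So did 2 of 11 leukocyte markers, TYROBP at 7.82 and CD68 at 7.28, and 1 of 6 fibroblast markers, COL1A1 at 8.18, and none of 4 endothelial markers. PTPRC, the pan-leukocyte marker, read 3.61. These placings also hold differences between probes. Of the 11 leukocyte markers 6, of the 4 endothelial markers 3 and of the 6 fibroblast markers 2 averaged below the first quartile of all genes (5.55). Of the 10 colon epithelial markers 1 did, CDH17, an intestinal cadherin, at 4.27. Averaged over both times 4 of the 10 colon markers differed between shCDK8 and shControl cells (KRT8, KRT18 and CDH1 higher, KRT19 lower), as did 1 leukocyte marker, LYZ (0.24, adjusted p = 0.0144). With serum COL1A1 was higher in the average response (0.34, adjusted p = 0.0292). The part of these markers in the results described here was not tested. Of the 40 measured members 8 averaged below the first quartile, namely TRAF1, CXCL2, CXCL3, CCL20, IL1A, IL1B, IL6 and TNF (RMA gives no call of detection). The plot of all members by array shows their values around each gene's mean.

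**Figure D1:**
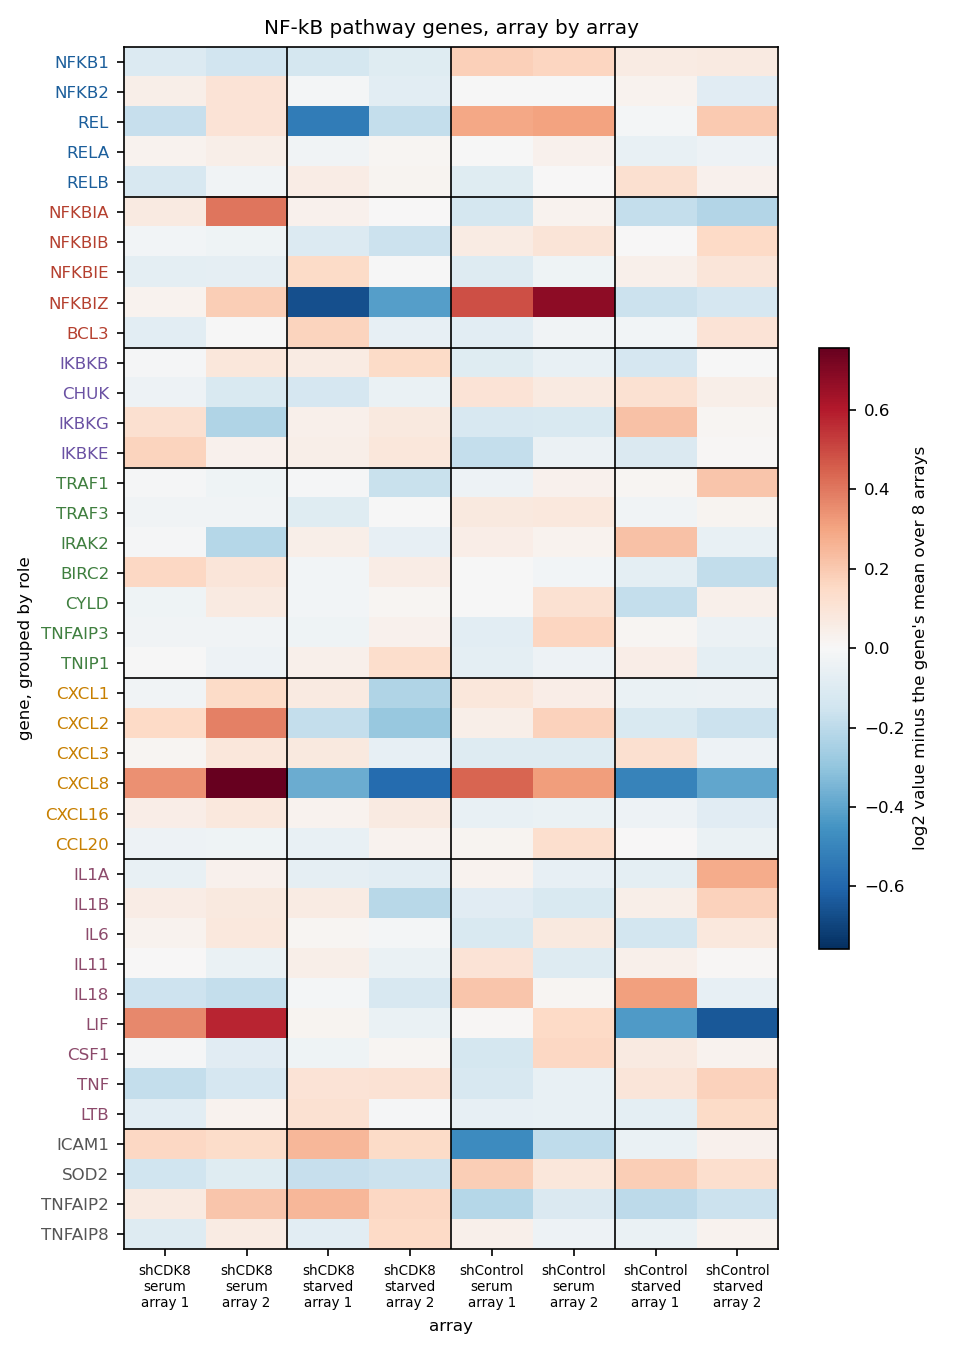
Each row is 1 of the 40 measured genes, grouped by role (label colours), and each column 1 of the 8 arrays; colour gives the log2 value minus the gene's mean over the 8 arrays. CXCL8 is red on the 4 serum arrays and blue on the 4 starved arrays.

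The first question was which of these genes respond to 30 min of serum. The members were chosen with earlier results of these data known, so shares of all genes are given as background and not as a test. In shCDK8 cells 2 of 40 members rose and none fell, where 0.250% of all genes rose and 0.00543% fell (0.255% in either direction). In shControl cells 3 of 40 rose and none fell, where 0.424% of all genes rose and 0.0380% fell (0.462% in either direction). CXCL8, NFKBIZ and LIF made up these calls: CXCL8 and NFKBIZ rose in both populations and LIF in shControl cells. Averaged over both populations 4 members rose (CXCL8, NFKBIZ, LIF and CXCL2) and none fell, where 0.684% of all genes rose and 0.0760% fell (0.760% in either direction). The median change over the 40 members was 0.02 in shCDK8 and 0.01 in shControl cells, against -0.01 in each over all genes.

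CXCL8 encodes interleukin-8, the chemokine that draws neutrophils through the receptors CXCR1 and CXCR2. It read 6.89 and 7.30 in shCDK8 serum cells, against 6.17 and 5.96 in shCDK8 starved cells. In shControl cells it read 6.98 and 6.86 with serum, against 6.04 and 6.15 when starved. Each serum array lay above each starved array in both populations. The rise was 2.04-fold in shCDK8 cells (log2 1.03 ± 0.13, adjusted p = 0.0102) and 1.77-fold in shControl cells (0.83 ± 0.13, adjusted p = 0.0240). The average rise was 0.93 ± 0.09 (adjusted p = 9.88e-04).

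NFKBIZ encodes IkB-zeta, an atypical nuclear IkB protein that acts with NF-kB at a subset of its secondary targets. It read 5.90 and 6.07 in shCDK8 serum cells, against 5.21 and 5.46 in shCDK8 starved cells. It read 6.37 and 6.56 in shControl serum cells, against 5.72 and 5.76 in shControl starved cells. The serum and starved arrays did not overlap within either population, while the shCDK8 serum arrays stood only a little above the shControl starved ones. The rise was 1.57-fold in shCDK8 cells (0.65 ± 0.10, adjusted p = 0.0408) and 1.66-fold in shControl cells (0.73 ± 0.10, adjusted p = 0.0133).

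LIF encodes leukaemia inhibitory factor, a cytokine of the interleukin-6 family. It read 7.66 and 7.87 in shCDK8 serum cells, against 7.32 and 7.25 in shCDK8 starved cells. It read 7.30 and 7.45 in shControl serum cells, against 6.87 and 6.66 in shControl starved cells. The arrays of the 2 states were apart in both populations, and the starved shCDK8 level was close to the serum level of shControl cells. The change was 0.61 ± 0.10 in shControl cells (1.53-fold, adjusted p = 0.0303) and 0.48 ± 0.10 in shCDK8 cells, where it did not pass (adjusted p = 0.136). The average rise was 0.55 ± 0.07 (adjusted p = 0.00508).

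CXCL2, a chemokine of the same receptor family as CXCL8, was dim. It read 4.51 and 4.74 in shCDK8 serum cells, against 4.18 and 4.07 in shCDK8 starved cells, and 4.40 and 4.54 in shControl serum cells, against 4.25 and 4.20 in shControl starved cells. Its serum arrays again lay above its starved ones in both populations. Neither population passed alone (0.50 ± 0.09, adjusted p = 0.0852, in shCDK8 cells and 0.25 ± 0.09, adjusted p = 0.475, in shControl cells), and the average rise was 0.37 ± 0.06 (adjusted p = 0.0295). The other chemokines did not pass. CXCL1, a close paralog of CXCL2, averaged a change of 0.13, CXCL3, another paralog, -0.05, CXCL16, the ligand of CXCR6, 0.01, and CCL20, the ligand of CCR6, 0.04. Probes for CXCL1, CXCL2 and CXCL3 may share signal, since the transcripts are near-identical over long stretches. CXCL16 read 8.67 and 8.70 in shCDK8 serum cells, 8.64 and 8.68 in shCDK8 starved cells, 8.56 and 8.56 in shControl serum cells and 8.58 and 8.53 in shControl starved cells.

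Calls within 1 population depended on single arrays more than the changes did. CXCL8 changed by 0.83 to 1.24 in shCDK8 cells and by 0.76 to 0.89 in shControl cells without any 1 array, and NFKBIZ by 0.53 to 0.77 and by 0.63 to 0.82. LIF in shControl cells changed by 0.51 to 0.72. Each of these calls was lost without at least 1 of the 8 arrays. NFKBIZ in shCDK8 cells and LIF in shControl cells lost theirs most often. Among these losses, NFKBIZ in shCDK8 cells lost its call without serum array 1 of those cells. LIF in shControl cells lost its call without either starved array of shCDK8 cells, among others. In shCDK8 cells the 2 members that rose were 0 without starved array 2 of shCDK8 cells, and 1 without serum array 2 or starved array 1 of shCDK8 cells or without either starved array of shControl cells. In shControl cells the 3 members were 0 without either starved array or serum array 2 of shControl cells, and 1 without its serum array 1. In the average, CXCL8, NFKBIZ and LIF kept their calls without any 1 of the 8 arrays (adjusted p up to 0.00851, 0.0112 and 0.0341), whereas CXCL2 lost its call without any array but serum array 1 of shCDK8 cells (adjusted p up to 0.135). With all 33297 probe sets fitted together, none of the 40 members rose in either population alone, and 3 rose in the average.

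**Figure D2:**
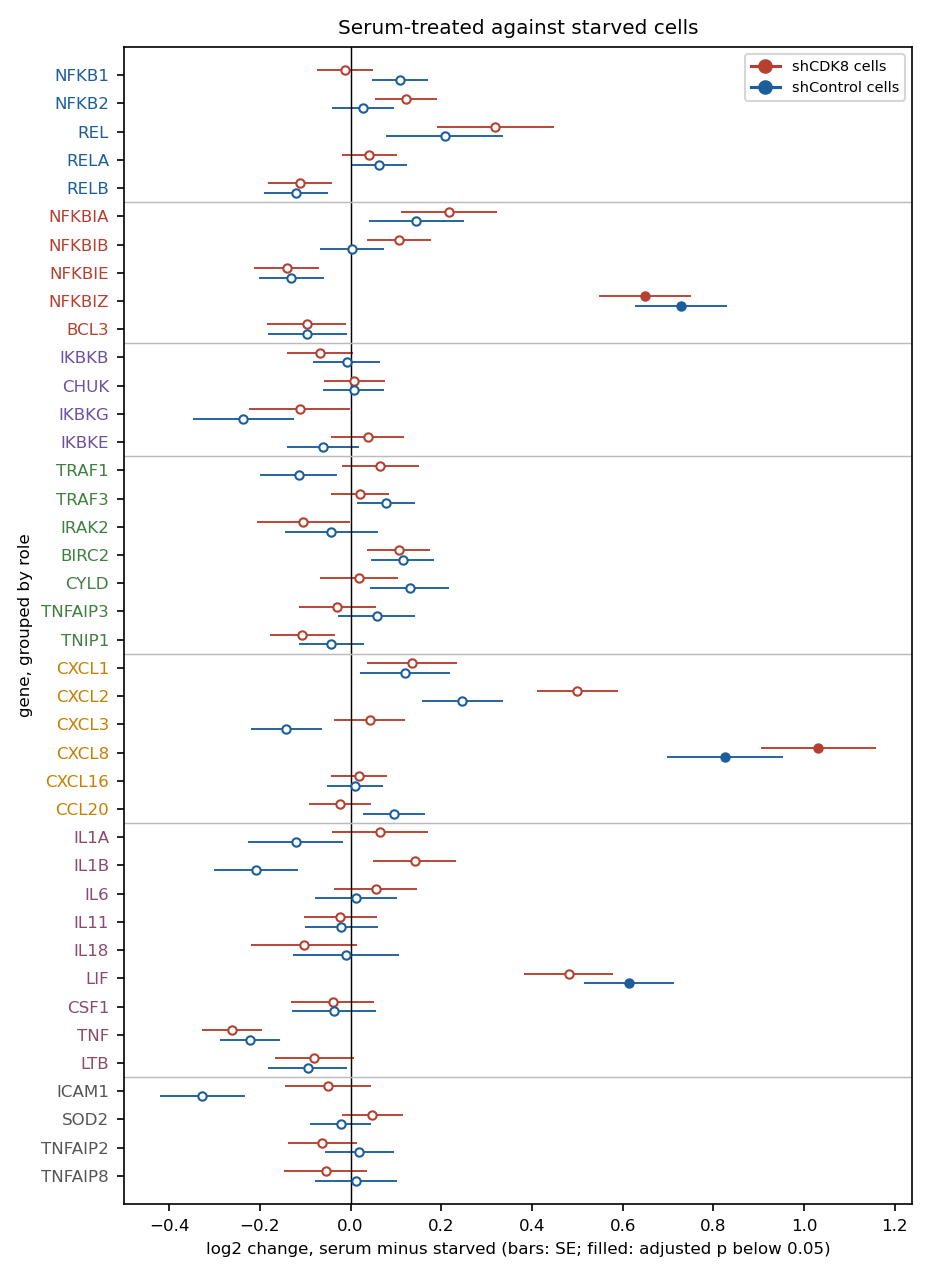
Points are log2 changes of serum-treated against starved cells for the 40 members in shCDK8 cells (red) and shControl cells (blue), bars are standard errors of limma's model, and filled points have an adjusted p below 0.05. CXCL8 (1.03 and 0.83) and NFKBIZ (0.65 and 0.73) are filled in both populations, LIF in shControl cells (0.61).

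The promoters of 3 of the 4 members that rose in the average serum response are shown, since no window was at hand for LIF, whose sites were not looked at. They are shown because promoters hold the sites through which NF-kB and AP-1, a serum-responsive dimer of FOS and JUN proteins, are known to act. Each sequence is the 250 bases before the gene start in RefSeq, build GRCh38.p14, at chr3:101827740-101827989 on the plus strand for NFKBIZ, chr4:74099196-74099445 on the minus strand for CXCL2 and chr4:73740319-73740568 on the plus strand for CXCL8. Capitals mark matches to the kappaB motif, a 10-base consensus that begins with GGG and ends with CC (in NFKBIZ and CXCL2), or to the AP-1 motif TGANTCA (in CXCL8), searched on both strands.
NFKBIZ: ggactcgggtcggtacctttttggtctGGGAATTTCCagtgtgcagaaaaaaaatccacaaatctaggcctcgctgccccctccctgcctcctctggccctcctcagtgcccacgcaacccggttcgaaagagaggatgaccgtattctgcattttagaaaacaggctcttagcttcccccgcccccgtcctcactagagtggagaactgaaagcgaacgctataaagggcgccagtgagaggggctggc
CXCL2: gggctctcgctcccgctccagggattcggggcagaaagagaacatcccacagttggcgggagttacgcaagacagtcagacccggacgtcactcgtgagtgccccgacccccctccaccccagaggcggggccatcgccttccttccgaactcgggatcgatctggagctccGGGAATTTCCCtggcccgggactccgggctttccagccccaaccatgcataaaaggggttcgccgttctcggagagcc
CXCL8: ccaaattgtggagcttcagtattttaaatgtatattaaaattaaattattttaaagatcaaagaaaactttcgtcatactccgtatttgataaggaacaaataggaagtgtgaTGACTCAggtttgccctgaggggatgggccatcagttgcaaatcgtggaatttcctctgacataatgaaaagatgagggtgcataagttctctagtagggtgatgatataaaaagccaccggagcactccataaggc
The kappaB motif matched once in NFKBIZ, at positions -223 to -214 from the start, as GGGAATTTCC. In CXCL2 it matched on both strands in overlapping positions, -78 to -68 from the start, and on the strand of the gene it reads GGGAATTTCC again. No kappaB match was found in the CXCL8 window, and TGANTCA matched there at -137 to -131, as TGACTCA. With the first letter of the motif left free, a search added after the data were seen, the CXCL8 window matched on both strands in overlapping positions, -92 to -82, and reads TGGAATTTCC on the strand of the gene. That looser search matched in 21 of the 33 members with a window (63.6%), against 28.3% of all windows. No match says only that the letters searched are not in this window.

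Promoter windows were found for 33 of the 40 members. The kappaB motif matched in 12 of the 33 (36.4%), against 9.96% of all 35116 promoter windows of the same length, a description of a list chosen in part for kappaB control. It matched in 2 of the 3 members with a window that rose in the average serum response, and in 10 of the 30 that did not. The AP-1 motif matched in 3 of 33 (CXCL8, IL1A and IL11), against 6.57% of all windows. CXCL1 and CXCL3 hold GGGAATTTCC at -79 to -70, overlapped on the other strand by GGGAAATTCC. NFKBIA holds GGGAATTTCC on the strand opposite the gene at -81 to -72, and TNFAIP3 holds GGGACTTTCC and GGGGATTTCC. CXCL1, CXCL3, NFKBIA and TNFAIP3 thus hold kappaB matches and did not pass in any serum comparison. The CArG box, the site of serum response factor, and the cyclic AMP response element TGACGTCA matched in none of the 33 windows, against 1.16% and 1.65% of all windows.

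**Figure D3:**
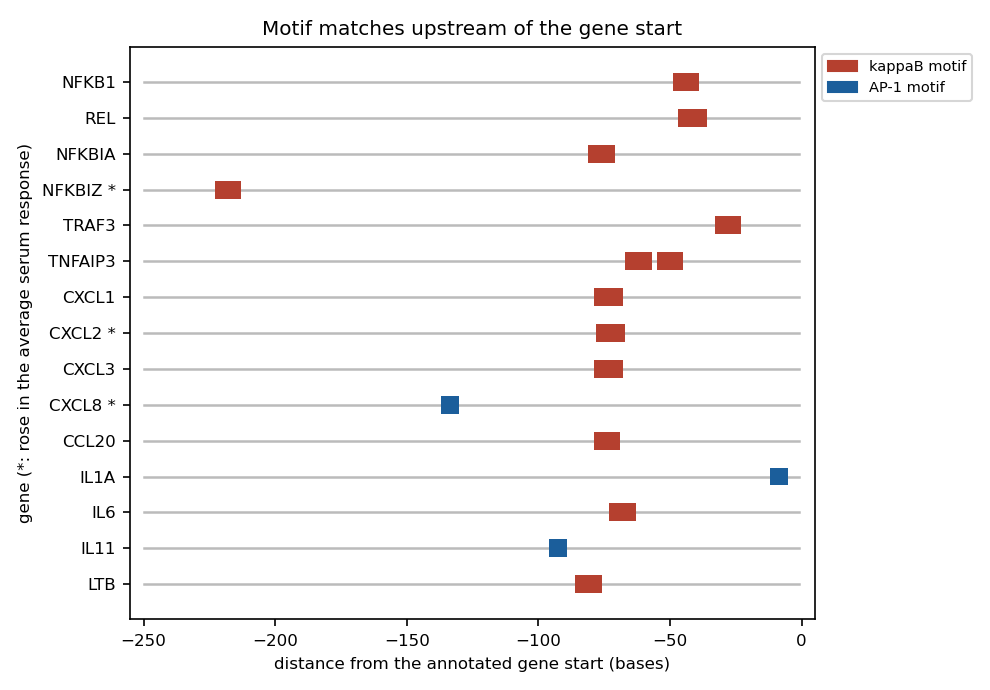
Grey lines are the 250 bases before the annotated gene start of the members with a match, red blocks are kappaB matches and blue blocks AP-1 matches, with position in bases from the start. The kappaB blocks of NFKBIA, CXCL1, CXCL2, CXCL3, CCL20, IL6 and LTB lie between -86 and -64, and that of NFKBIZ at -223 to -214.

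No gene of the Rel subunits or the IKK kinases passed with serum. None of the 5 subunits passed in either population, where 0.255% of all genes did in shCDK8 cells and 0.462% in shControl cells. Groups of 4 or 5 genes would seldom hold a call at such shares, so its absence says little about them. RELA, the main transactivating subunit, read 9.51 and 9.53 in shCDK8 serum cells, 9.46 and 9.50 in shCDK8 starved cells, 9.49 and 9.52 in shControl serum cells and 9.43 and 9.45 in shControl starved cells. Its average change of 0.05 ± 0.04 did not pass (adjusted p = 0.602). REL, the subunit c-Rel, had the largest average change of the subunits (0.26 ± 0.09, adjusted p = 0.251). It changed by 0.32 ± 0.13 in shCDK8 cells and by 0.21 ± 0.13 in shControl cells (adjusted p = 0.498 and 0.681). The REL serum arrays lay above the starved ones in both populations, narrowly in shCDK8 cells. RELB went the other way, with an average change of -0.12 ± 0.05 (adjusted p = 0.333). None of the 4 IKK genes passed with serum, where 0.760% of all genes did in the average. Their average changes ran from -0.17 for IKBKG, the regulatory subunit NEMO, to 0.01 for CHUK, the kinase IKK-alpha.

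The classical feedback inhibitors did not pass either. NFKBIA, which encodes IkB-alpha, changed by 0.22 ± 0.11 in shCDK8 cells (adjusted p = 0.548) and by 0.15 ± 0.11 in shControl cells (adjusted p = 0.737). Its serum arrays lay above its starved ones in both populations. The average change of NFKBIA was 0.18 ± 0.07 (adjusted p = 0.314), with a 95% interval, not adjusted for the number of genes, from 0.01 to 0.35. TNFAIP3, the ubiquitin-editing enzyme A20, changed by -0.03 ± 0.08 and 0.06 ± 0.08 (adjusted p = 0.935 and 0.895). With 95% intervals from -0.22 to 0.16 in shCDK8 cells and from -0.13 to 0.25 in shControl cells, a rise of TNFAIP3 of the size seen for NFKBIZ lies outside both. The intervals hold only the spread of these arrays, and changes on different probe sets may differ in scale, so a response of TNFAIP3 is not excluded. None of the 7 adaptors and feedback regulators passed in any comparison. The largest share of all genes that passed was 23.3%, between shCDK8 and shControl cells averaged over both times. Among them BIRC2, a ubiquitin ligase of the TNF receptor complex, read 9.24 and 9.17 in shCDK8 serum cells, 9.06 and 9.14 in shCDK8 starved cells, 9.08 and 9.06 in shControl serum cells and 9.01 and 8.89 in shControl starved cells.

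Of the 9 measured cytokines LIF was the 1 that passed with serum. TNF, the founding member of its cytokine family, had the next smallest p: it read 5.31 and 5.36 in shCDK8 serum cells, against 5.59 and 5.60 in shCDK8 starved cells, and 5.37 and 5.43 in shControl serum cells, against 5.58 and 5.66 in shControl starved cells. The serum arrays lay below the starved ones in both populations, and the average change of -0.24 ± 0.05 missed the threshold (adjusted p = 0.0588). The table holds 3 probe sets for TNF with identical values. LTB, a membrane-anchored ligand of the lymphotoxin receptor, read 8.38 and 8.49 in shCDK8 serum cells and 8.58 and 8.45 in shCDK8 starved cells. It read 8.40 and 8.41 in shControl serum cells and 8.39 and 8.61 in shControl starved cells, and its groups overlapped. These are values of the LTB probe set with the highest mean (8.46). Another LTB probe set averaged 6.49 and differed from it by up to 2.22. IL6, IL11 and CSF1 changed on average by 0.03, -0.02 and -0.04, and IL1A, IL1B and IL18 by -0.03, -0.03 and -0.06.

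The next question was whether the serum response of these genes depends on CDK8. In the difference between the responses (shCDK8 minus shControl), 0 of 40 members passed limma's test, as did 0.00% of all genes, and 1 member, IL1B, had an unadjusted p below 0.05, as had 703 of all genes. Letting the prior variance follow intensity also gave 0 members. IL1B, a fever-inducing cytokine that was dim here, changed by 0.14 in shCDK8 and by -0.21 in shControl cells (difference 0.35 ± 0.13, limma's adjusted p = 1.00). The difference was 0.21 for CXCL8 (95% interval -0.20 to 0.61), -0.08 for NFKBIZ (-0.40 to 0.24), -0.13 for LIF (-0.45 to 0.18) and 0.25 for CXCL2 (-0.03 to 0.54). All 4 intervals hold 0 and are wide beside the responses themselves, so smaller differences were not detectable with 2 arrays a group.

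Without regard to serum, the question is how shCDK8 and shControl cells differ. In starved cells 2 of 40 members were higher in shCDK8 cells, LIF and TNFAIP2, where 7.13% of all genes were, and 3 were lower, REL, NFKBIZ and SOD2, where 6.28% of all genes were (13.4% in either direction). After serum 3 were higher, LIF, ICAM1 and TNFAIP2, where 7.70% of all genes were, and 3 were lower, NFKB1, NFKBIZ and SOD2, where 6.54% of all genes were (14.2% in either direction). Averaged over both times 4 were higher, where 12.0% of all genes were, and 6 lower, where 11.3% of all genes were. That makes 10 of 40 in either direction, against 23.3% of all genes, so the share of members that differed was near the background. The sizes were also ordinary, with a median absolute difference of 0.07 over the members and 0.08 over all genes. What can be described is which members differed and in which direction.

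Among the subunits, NFKB1 and REL were lower in shCDK8 cells. NFKB1 encodes the p105 precursor of p50, the DNA-binding partner of RELA. It read 8.63 and 8.59 in shCDK8 serum cells, against 8.92 and 8.90 in shControl serum cells, and 8.60 and 8.64 in shCDK8 starved cells, against 8.80 and 8.80 in shControl starved cells. All 4 shCDK8 arrays lay below all 4 shControl arrays. The difference was -0.30 ± 0.06 after serum (adjusted p = 0.0107), -0.18 ± 0.06 in starved cells (adjusted p = 0.0997) and -0.24 ± 0.04 on average (1.18-fold lower, adjusted p = 0.00328). REL read 7.25 and 7.53 in shCDK8 serum cells, against 7.72 and 7.73 in shControl serum cells, and 6.89 and 7.25 in shCDK8 starved cells, against 7.41 and 7.62 in shControl starved cells. Its arrays did not overlap between the populations at either time, and its duplicates lay far apart in shCDK8 serum, shCDK8 starved and shControl starved cells but not in shControl serum cells. The average difference was -0.39 ± 0.09 (1.31-fold lower, adjusted p = 0.0115). NFKB2, RELA and RELB differed on average by 0.03, 0.03 and -0.03 and did not pass.

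Of the IkB family, NFKBIZ was lower at both times. The values given above place its shCDK8 serum arrays below its shControl serum arrays, and its shCDK8 starved arrays below its shControl starved ones. The difference was -0.48 ± 0.10 after serum (adjusted p = 0.0116) and -0.40 ± 0.10 in starved cells (adjusted p = 0.0290). NFKBIA went the other way, at 8.97 and 9.31 in shCDK8 serum cells, against 8.77 and 8.93 in shControl serum cells, and 8.94 and 8.91 in shCDK8 starved cells, against 8.72 and 8.68 in shControl starved cells. The shCDK8 arrays were the higher ones at both times, and the average difference was 0.26 ± 0.07 (1.19-fold, adjusted p = 0.0327). NFKBIB, which encodes IkB-beta, read 8.29 and 8.28 in shCDK8 serum cells, against 8.37 and 8.41 in shControl serum cells, and 8.21 and 8.15 in shCDK8 starved cells, against 8.31 and 8.46 in shControl starved cells. Its average difference was -0.16 ± 0.05 (adjusted p = 0.0475). NFKBIE and BCL3, the remaining IkB proteins, differed by 0.00 and 0.01 and did not pass.

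Of the IKK genes CHUK was lower on average by 0.17 on the log2 scale (-0.17 ± 0.05, adjusted p = 0.0322). It read 9.30 and 9.22 in shCDK8 serum cells, against 9.44 and 9.40 in shControl serum cells, and 9.21 and 9.29 in shCDK8 starved cells, against 9.45 and 9.38 in shControl starved cells. IKBKB, the kinase IKK-beta, and IKBKE, an IKK-related kinase, differed by 0.14 ± 0.05 (adjusted p = 0.0802) and 0.17, and neither passed. IKBKG differed by 0.00. Its probes may also read the near-identical pseudogene copy.

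LIF was higher in shCDK8 cells at both times, by 0.39 ± 0.10 after serum (adjusted p = 0.0276) and by 0.52 ± 0.10 in starved cells (adjusted p = 0.00698), with no overlap of arrays. Its average difference of 0.45 ± 0.07 (1.37-fold, adjusted p = 0.00111) was the 1 positive call among the cytokines. CXCL8 and CXCL2, which rose with serum, did not differ past the threshold (0.07 and 0.03 on average). The other cytokine with a sizeable difference was IL18, an epithelial cytokine of the interleukin-1 family, at -0.24, which did not pass.

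Averaged over both times 3 of the 4 remaining targets were called, beside 23.3% of all genes. A group of 4 chosen genes is too small to set against that share. TNFAIP2, a TNF-induced protein of endothelial and epithelial cells, read 8.38 and 8.52 in shCDK8 serum cells, against 8.10 and 8.20 in shControl serum cells, and 8.56 and 8.47 in shCDK8 starved cells, against 8.11 and 8.15 in shControl starved cells. All shCDK8 arrays lay above all shControl arrays, with an average difference of 0.34 (adjusted p = 0.00129). ICAM1, the adhesion molecule to which leukocytes bind, read 6.14 and 6.13 in shCDK8 serum cells, against 5.51 and 5.79 in shControl serum cells, and 6.24 and 6.13 in shCDK8 starved cells, against 5.94 and 6.02 in shControl starved cells. The gap was widest after serum (0.48 ± 0.09, adjusted p = 0.00741), in starved cells it was 0.21 ± 0.09 (adjusted p = 0.204), and the test of the change in gap did not pass (0.28 ± 0.13, adjusted p = 1.00). SOD2, the mitochondrial superoxide dismutase, read 8.33 and 8.39 in shCDK8 serum cells, against 8.67 and 8.57 in shControl serum cells, and 8.31 and 8.32 in shCDK8 starved cells, against 8.67 and 8.62 in shControl starved cells. All 4 shCDK8 arrays lay below all 4 shControl arrays, with an average difference of -0.29 ± 0.05 (1.23-fold lower, adjusted p = 0.00156). TNFAIP8, an apoptosis regulator, differed by 0.02.

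**Figure D4:**
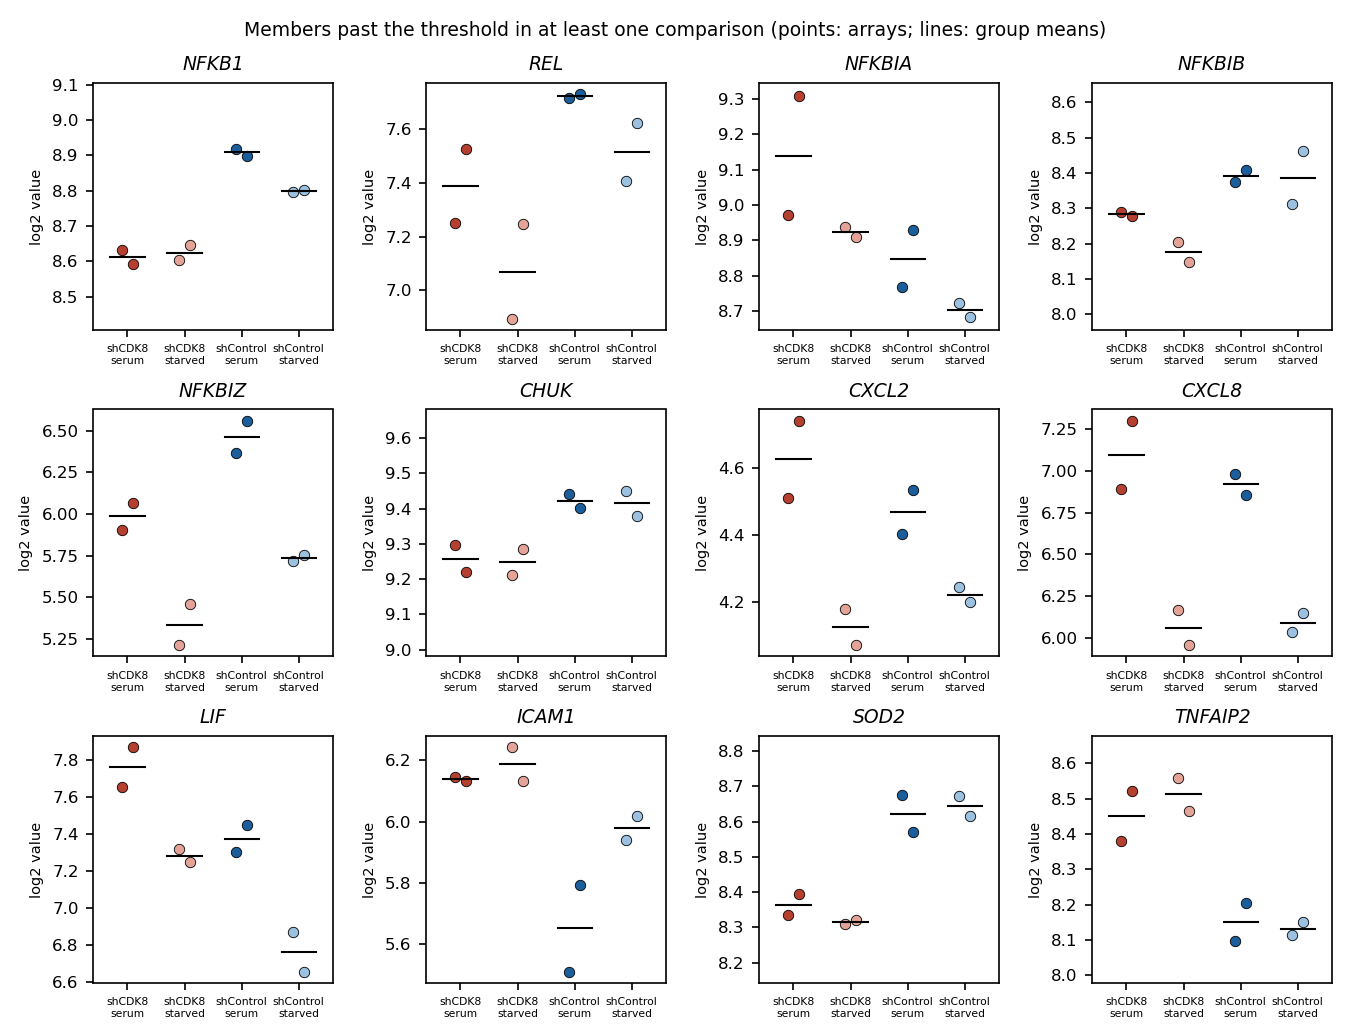
Points are the log2 values of single arrays and lines are group means for the 12 members with an adjusted p below 0.05 in at least 1 comparison; the vertical scale differs between panels. The shCDK8 and shControl arrays are fully apart in NFKB1, NFKBIB, CHUK, ICAM1, SOD2 and TNFAIP2, and the serum and starved arrays in NFKBIZ, CXCL2 and CXCL8.

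In the average over both times NFKB1, REL, NFKBIZ, LIF, ICAM1, SOD2 and TNFAIP2 kept their calls without any 1 array, while NFKBIA lost its call without 6 of the 8 arrays (adjusted p up to 0.114), NFKBIB without 7 (up to 0.140) and CHUK without 5 (up to 0.104). At single times every call was lost without at least 1 of the 8 arrays, while the differences kept their direction. Without starved array 1 of shControl cells REL, NFKBIZ and SOD2 all lost their calls in starved cells. Over the omissions the difference in starved cells was -0.62 to -0.27 for REL, -0.52 to -0.28 for NFKBIZ and -0.36 to -0.30 for SOD2. It was 0.41 to 0.63 for LIF and 0.33 to 0.43 for TNFAIP2. After serum it was -0.32 to -0.28 for NFKB1, -0.57 to -0.38 for NFKBIZ and -0.31 to -0.21 for SOD2. It was 0.28 to 0.49 for LIF, 0.34 to 0.63 for ICAM1 and 0.23 to 0.37 for TNFAIP2.

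**Figure D5:**
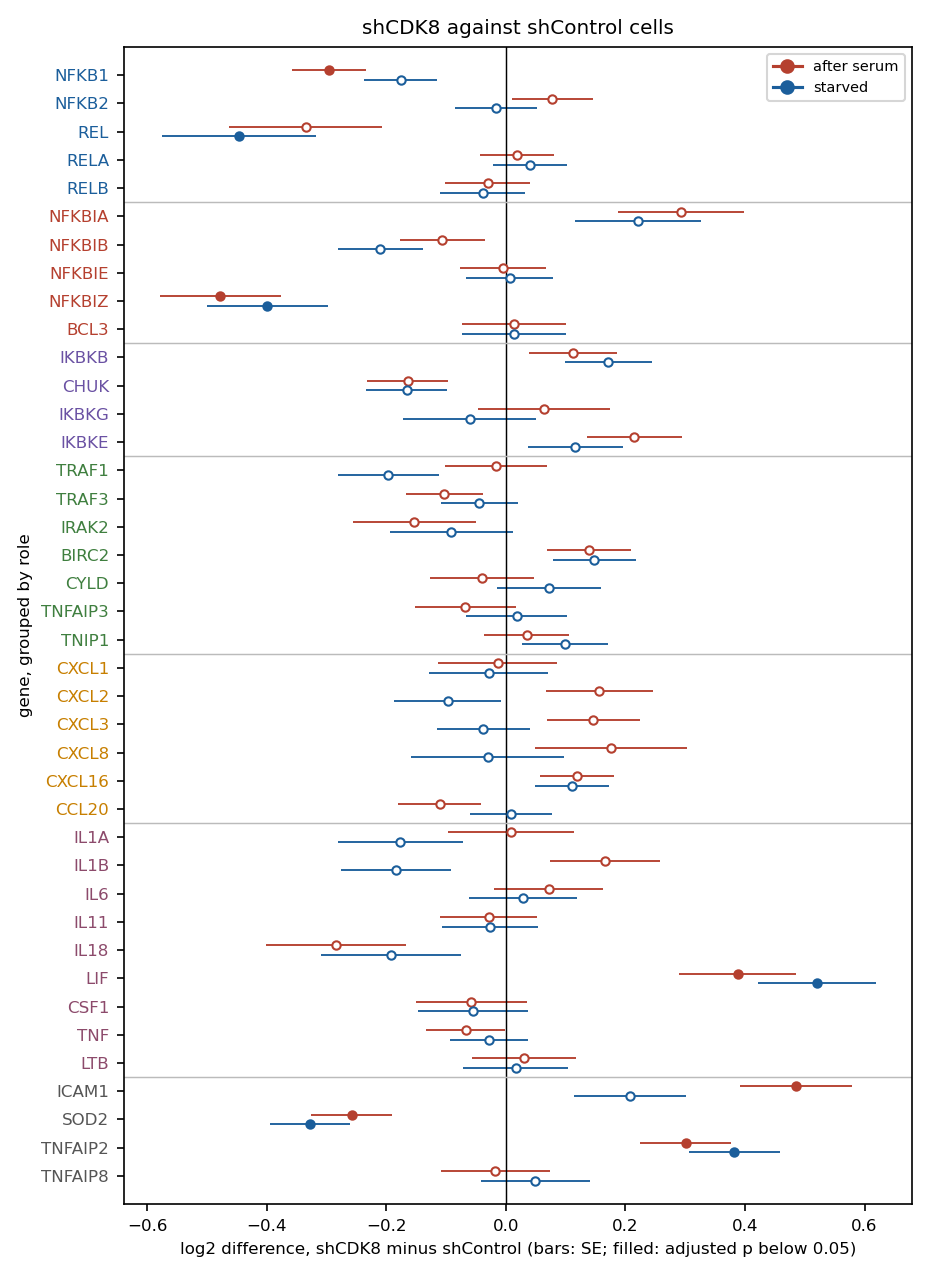
Points are log2 differences of shCDK8 against shControl cells for the 40 members after serum (red) and in starved cells (blue), bars are standard errors of limma's model, and filled points have an adjusted p below 0.05. LIF and TNFAIP2 are filled on the right at both times and NFKBIZ and SOD2 on the left.

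Further genes of the pathway were taken from 3 lists of receptors, signalling proteins and other targets, of which 93 of 100 genes were measured. The lists were chosen with earlier results of these data known. Their shares beside those of all genes therefore describe the lists and do not test for enrichment. With serum, 1 of the 93 rose in shCDK8 cells, NUAK2, an AMPK-related kinase (0.95 ± 0.12, adjusted p = 0.0121), and 2 rose in shControl cells, NUAK2 (0.83 ± 0.12) and the immediate-early gene IER3 (0.52 ± 0.07, adjusted p = 0.0133). These are 1.08% and 2.15% of the 93, beside the 0.250% and 0.424% of all genes that rose. In the average 5 rose (5.38%, beside 0.684% of all genes) and none fell: NUAK2 (0.89), the stress sensor GADD45B (0.73), PLAU, the urokinase protease (0.52), IER3 (0.47) and BCL10, an adaptor that links antigen receptors to NF-kB (0.36). None of the 26 receptors passed with serum, where 0.760% of all genes did in the average. The median change over the 93 genes was 0.00 in shCDK8 and 0.01 in shControl cells. The 2 genes of shControl cells were 0 without either of its starved arrays or its serum array 1 and 1 without its serum array 2; NUAK2 in shCDK8 cells lost its call without serum array 2 or either starved array of shCDK8 cells, and 3 genes rose without its serum array 1; the 5 of the average were 3 without starved array 2 of shCDK8 cells.

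Between shCDK8 and shControl cells, averaged over both times, 16 of the 93 were higher and 8 lower, 25.8% in all beside the 23.3% of all genes. Of the 26 receptors 3 were higher and 4 lower (26.9%). LIFR, the receptor of LIF, was lower by far the most (-1.13 ± 0.07, 2.19-fold lower, adjusted p = 2.56e-06), and IL6ST, the signalling subunit gp130 that LIFR pairs with, was lower by 0.27 on the log2 scale (-0.27 ± 0.06, adjusted p = 0.0110), while their ligand LIF was higher, as given above. TLR3, a sensor of double-stranded RNA, and IL1R1, the interleukin-1 receptor, were lower too (-0.32 and -0.23), and CSF2RA, IL1RAP and LTBR were higher (0.25, 0.23 and 0.19).

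Of the 30 signalling proteins 6 were higher and 3 lower (30.0%, beside 23.3% of all genes). MALT1, a protease and scaffold that activates the IKK complex together with BCL10, was 3.53-fold higher in shCDK8 cells (1.82 ± 0.07, adjusted p = 1.19e-07), at 1.77 in starved cells and 1.87 after serum. RBCK1 and SHARPIN, subunits of the linear ubiquitin ligase LUBAC, were higher by 0.51 and 0.17, and its catalytic subunit RNF31, named here after its value was seen, by 0.15 (adjusted p = 0.0482). TRAF4 was higher by 0.32. TANK, an adaptor of the IKK-related kinases, was lower (-0.84 ± 0.07, 1.79-fold lower, adjusted p = 1.72e-05), as were TBK1, one of those kinases (-0.26), and NFKBID, a nuclear IkB protein (-0.22).

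Of the 37 other targets 7 were higher and 1 lower (21.6%, beside 23.3% of all genes). The adhesion receptor CD44 (1.04), the anti-apoptotic BCL2L1 (0.71), the death receptor TNFRSF10B (0.41) and PLAU (0.35) were the 4 largest of those higher, and PLAUR, the receptor of urokinase, was lower (-0.30 ± 0.05, adjusted p = 0.00118). The 16 higher genes were 9 without starved array 1 of shCDK8 cells and 10 without serum array 2 of either population, and the 8 lower genes were 5 without that starved array. In starved cells 8 of the 93 were higher and 3 lower (11.8%, beside 13.4% of all genes), and after serum 6 and 3 (9.68%, beside 14.2%). The 8 were 5 without starved array 2 of shCDK8 cells or starved array 1 of shControl cells.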

How the data were processed

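Affymetrix human gene arrays measured RNA of 8 HCT116 samples, 1 array each, in 4 groups of 2 taken from the sample titles. The deposited values are log2 probe set levels that the authors made with RMA, per the submitters' processing notes; the RMA version and any genome build were not given in the sources used here. Precision is limited by the number of arrays.

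The platform annotation pairs 19460 of the 33297 probe sets with 1 gene and 1754 with several, and leaves 12083 unlisted. A RefSeq gene table (GRCh38.p14) held the Entrez identifier of 19429. Where a gene had several probe sets the one with the highest mean was used, which left 18417 genes. The values were used as deposited, with no filter. limma 3.58.1 (R 4.3.3) fitted 1 mean for each of the 4 groups (4 residual and 5.49 prior degrees of freedom), with 7 two-sided contrasts, Benjamini-Hochberg adjustment over all genes and a threshold of 0.05. The procedure was tested on simulated data. Members and lists were chosen with earlier results of these data known. Members that passed in any contrast were named with every array's value, as was the member of each role group with the highest mean; where fewer than 3 passed, the 3 with the smallest p were added, and of the further genes up to 4 per list and direction. Alternatives were an intensity trend, a fit of only the arrays compared, a replicate block, a filter at the 25th percentile, cyclic loess, median centring, the mean of probe sets, all probe sets in 1 fit, a change of at least 1.5-fold and omission of each array. Promoter windows are RefSeq's. Figures were drawn with matplotlib 3.10.9.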

Additional observations from a re-analysis of the deposited data

How the results depend on the processing

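Of the 36 changes of single members that were followed through up to 17 alternatives, none reversed. Where member counts are paired below, those higher in shCDK8 or serum-treated cells come first, then those lower. Where 1 direction alone is named, the other is not reported. Under a minimum change of 1.5-fold no member passed in any comparison (0 in each). With all probe sets in 1 fit, 0 rose with serum in each population. In starved shCDK8 cells LIF and TNFAIP2 stayed higher and 1 member was lower, and after serum 1 was higher and 1 lower. In the average over times LIF, ICAM1 and TNFAIP2 stayed higher and 3 members were lower. An intensity trend gave 4 serum rises in shCDK8 cells and 5 lower members in starved cells. Cyclic loess gave 1 serum rise in shCDK8 cells and 1 lower member in starved cells, and the compared arrays alone gave 0 serum rises in shCDK8 cells. Leaving out 1 array gave 0 to 2 serum rises in shCDK8 cells, 0 to 3 in shControl cells and 3 to 4 in the average. It gave 0 to 2 higher and 0 to 3 lower members in starved cells, 0 to 4 and 0 to 3 after serum, and 3 to 4 and 4 to 6 in the average over times. The cause of these moves was not tested, except that fewer arrays were fitted where one was left out and that a minimum change is a stricter test.

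Duplicate numbers are shared between groups, but the labels do not say what they mark, and same-numbered deviations correlated between groups with r from -0.19 to 0.13, so the numbers were not taken to pair arrays. With the replicate block the 3 serum rises in shControl cells became 1 (NFKBIZ), since CXCL8 (adjusted p = 0.0551) and LIF (0.0702) missed the threshold, and CXCL2 (0.0544, average) and NFKBIB (0.0608, average over times) also missed it (no other called change lost its call, and 4 members in place of 3 were lower after serum). Crossing the numbers of the starved groups, an alternative chosen after seeing the data, left 2 higher and 3 lower members there, and 6 lower further pathway genes in place of 3. Of the 93 further pathway genes, the 2 serum rises in shControl cells were 5 with an intensity trend, 4 with median centring and 0 with all probe sets in 1 fit; the 1 in shCDK8 cells was 4, 3 and 0, and 2 without dim genes; the 5 of the average were 2 with all probe sets in 1 fit. In the average over times 16 higher and 8 lower were 9 and 5 with all probe sets in 1 fit and 2 and 1 under the minimum change, which left no serum rise; 3 lower in starved cells were 5 with the trend or without dim genes, and 3 after serum were 6 and 5. At single times the minimum change left 2 higher and 1 lower.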

Other observations

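REL and NFKBIZ read higher on array 2 than on array 1 in each of the 4 groups. So did RELA, IKBKB, CYLD and TNF, while IL18, IRAK2 and IL11 read lower on array 2 in each group. How many of all genes do either was not counted. For REL the values of arrays 1 and 2 were 7.25 and 7.53 in shCDK8 serum cells, 6.89 and 7.25 in shCDK8 starved cells, 7.72 and 7.73 in shControl serum cells and 7.41 and 7.62 in shControl starved cells. With the replicate block the difference of REL between shCDK8 and shControl starved cells stayed at -0.45 with an adjusted p of 0.0128, beside 0.0489 without the block.

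ICAM1 gave the lowest of the 40 serum changes in shControl cells (-0.33 ± 0.09, adjusted p = 0.328), where it did not pass, and -0.05 ± 0.09 in shCDK8 cells.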
